A study of Mus musculus with 8 samples.

Results

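The genes of the autophagy machinery were examined in adipose tissue macrophages (ATMs) from obese and lean mice. The list held 37 genes, from the kinase complex that starts autophagy to the receptors that bring cargo to it, and they were found by exact gene symbol in the annotation of the array. Of these, 34 were measured by a probe set with 1 symbol, out of 18820 genes measured in the same way, and where a gene had several probe sets the brightest was used. Becn1, the scaffold of the class III PI3-kinase complex, and Atg4d, an ATG8 protease, lay only on probe sets shared with another symbol (Cntd1 and Kri1) and were given no value, and Optn, a cargo receptor, was not analysed here.

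All mice were male wildtype C57Bl/6 and received a high-fat diet (HFD) or a low-fat diet (LFD), both with lard, in 4 separate experiments that each gave 1 HFD and 1 LFD array. The HFD held 45 kcal% fat in experiments 1 and 3 and 60 kcal% in experiments 2 and 4, and every LFD held 10 kcal%. The paper's methods give a different LFD to match each of these HFDs. The diets lasted 16 weeks in experiments 1 and 3, 15 weeks in experiment 2 and 10 weeks in experiment 4. Each array held RNA from a pool of mice, from cells of the stromal vascular fraction of epididymal fat selected with magnetic beads on the single surface marker F4/80+. Ages and body weights were not given in the labels.

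Autophagy encloses cytoplasm, organelles or lipid in a double membrane, the autophagosome, which then fuses with the lysosome. The ULK1 kinase complex starts the process, the class III PI3-kinase complex marks the membrane with a phospholipid that WIPI proteins read, and ATG2 and ATG9 supply lipid. A chain of enzymes resembling that of ubiquitin (ATG7, ATG3, ATG10, ATG12, ATG5 and ATG16L1) then attaches small ATG8 proteins, LC3 and the GABARAPs, to the membrane, where receptors such as p62 (Sqstm1) dock with their cargo. In macrophages the route is known for clearing lipid droplets, damaged mitochondria and microbes. Much of its control acts on proteins, which a transcript array does not measure.

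The cell type was checked with markers. Macrophage markers (12 of 12 measured) had a mean log2 level of 10.12 to 10.83 on the 6 arrays of experiments 2 to 4 and only 7.56 (LFD) and 8.74 (HFD) in experiment 1, where endothelial markers (18 of 18 measured) were at 10.52 and 10.17, their highest levels of the series. In the other experiments the endothelial mean ran from 5.65 in the LFD array of experiment 3 to 8.98 in the LFD array of experiment 4, and HFD minus LFD was -0.36, -0.85, 1.99 and -1.68 in experiments 1 to 4. The 10 fibroblast and mural markers differed by 0.06, 0.58, 1.66 and -0.62, and of these only Col1a1 (1.00, unadjusted p = 0.0139 in limma with the block) and Col3a1 (1.03, unadjusted p = 0.0133) were higher in HFD in all 4 experiments. The mean differences of Acta2 (-0.28) and Dcn (-0.13) were below 0 and those of the other markers above 0. The 5 measured adipocyte markers differed by 0.40, -0.32, -0.05 and -0.51 in experiments 1 to 4. Of these, Lep (0.45, unadjusted p = 0.00751 in limma with the block) was higher in HFD in all 4. The mean differences of Adipoq (-0.70), Pck1 (-0.17), Cidec (-0.15) and Plin1 (-0.05) were below 0. The B cell gene Cd79b (-0.88, unadjusted p = 0.00911 in limma with the block) was lower in all 4. The other measured B cell genes were not: Cd79a (mean -0.14, levels up to 4.24) was higher in 3 experiments and Ms4a1 (mean -0.25, levels up to 3.81) was lower in 3. Of the lymphocyte markers, 6 of 8 measured were under log2 4.32 (20 on the linear scale) on all arrays, as were 3 of 4 neutrophil markers. Values without experiment 1, from the fit with the block, are therefore given for the differences described in full, and their dependence on cell mixture was not tested beyond the values given. In such bulk RNA, more cells of a type and more RNA per cell cannot be told apart.

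The autophagy genes differed little between diets, as did most genes of the array. Expressed as HFD minus LFD on the log2 scale, their mean differences over the 4 experiments ran from -0.19 (Atg14) to 0.43 (Atg7), with a median of 0.03 against 0.00 over all genes, and 18 lay above 0 and 16 below. None differed by more than 0.5, a size that 1113 of all genes (5.91%) exceeded, and 29 of the 34 (85.3%) lay between -0.25 and 0.25 against 80.8% of all genes. The 95% interval of the difference lay within 0.5 of 0 for 22 members in the comparison of the 4 HFD with the 4 LFD arrays, and for 26 when experiment was a block, so that for most members a change of that size was outside the interval. Every array measured every member above log2 4.32, at levels between 4.64 and 11.19.

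**Figure D1:**
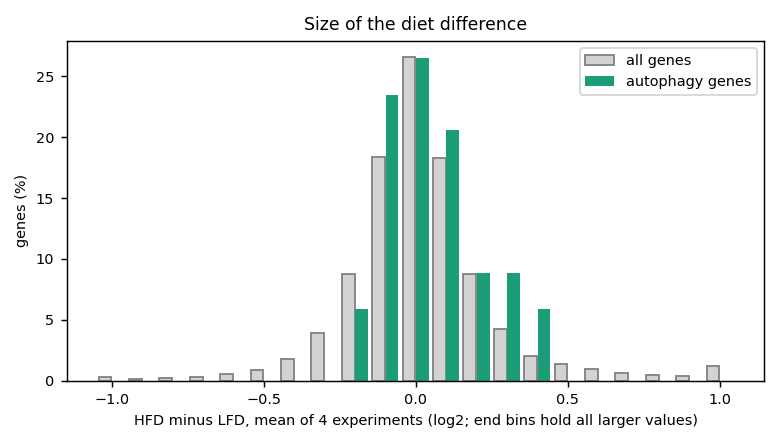
Share of genes (vertical axis, %) by mean HFD minus LFD difference over 4 experiments (horizontal axis, log2, bins 0.1 wide, the end bins holding all larger values), for all 18820 genes (grey) and the 34 autophagy genes (green). The autophagy genes fill the bins around 0 and reach no further than -0.19 and 0.43.

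No gene of the array passed an adjusted p of 0.05 in limma (0% of 18820 genes without a block and 0% with experiment as a block), and the smallest adjusted p of an autophagy gene was 0.982 without the block and 0.177 with it. At an unadjusted p under 0.05, 1 member was higher in HFD (Atg13, 2.94% of the members, against 3.30% of all genes) and 0 were lower (1.51% of all genes, or 284). With the block 4 members were higher (Atg13, Atg7, Wipi1 and Atg4c, 11.8% against 7.95% of all genes) and 0 were lower (4.16% of all genes, or 783), and 30 did not pass. The methods' t-test on the same values also called 1 member higher and 0 lower, and of all genes 524 higher and 286 lower before adjustment and 0 after it. The split of all genes moved with scaling, from 621 higher and 284 lower as deposited to 312 and 402 after centring each array on its median and 462 and 455 after renewed quantile normalisation, which both left 0 members past the threshold. In 6 members the HFD array was higher in all 4 experiments (17.6%, against 11.0% of all genes), and in 2 it was lower in all 4 (5.88%, against 7.43%). After centring each array on its median, Wipi1 and Atg7 were the only 2 members higher in all 4, and 3 were lower in all 4 (Atg14, Atg4b and Map1lc3a), no longer including Atg9a, whose highest difference was then 0.02. No share of all genes is given for these counts after centring. All 4 HFD arrays lay above all 4 LFD arrays in 1 member, Atg13 (2.94%, against 1.19% of all genes), and in 0 members did they lie below (0.680% of all genes).

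**Figure D2:**
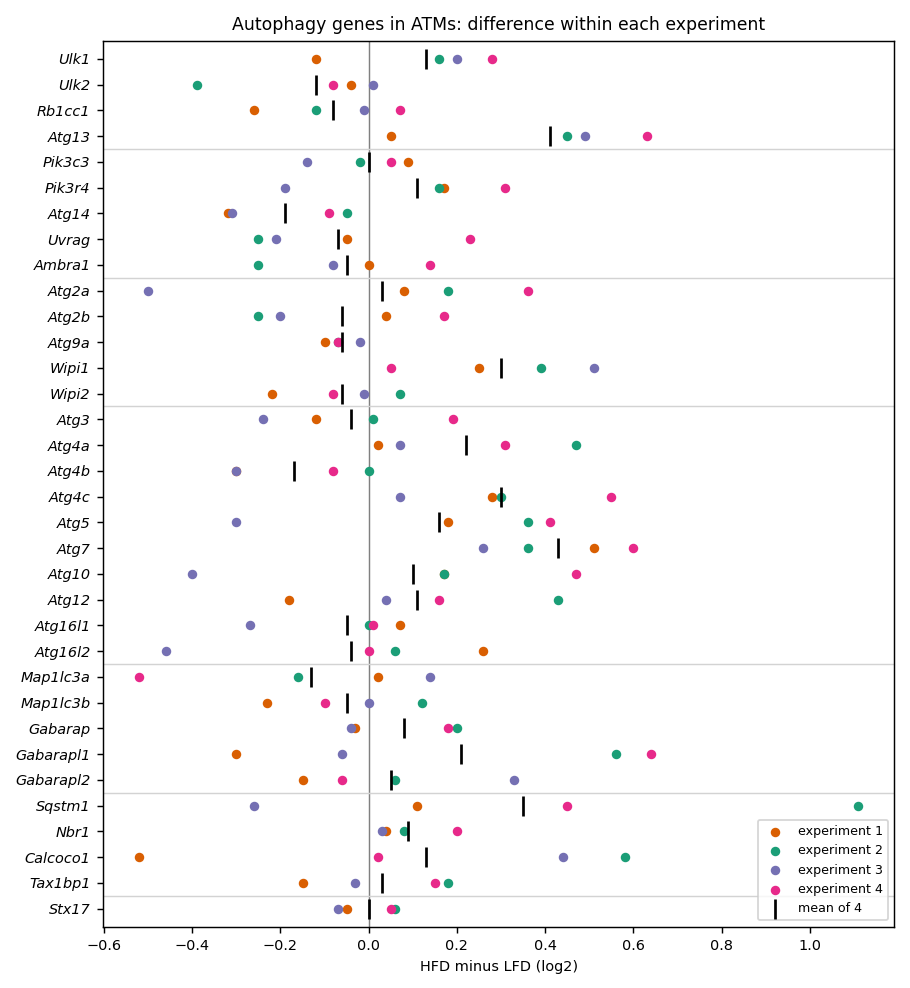
HFD minus LFD (log2, horizontal axis) of each of the 34 measured autophagy genes (rows, grouped by role) in each of the 4 experiments (coloured points), with the mean of the 4 (black bar). Most rows straddle 0, whereas all points of Atg13, Wipi1, Atg4a, Atg4c, Atg7 and Nbr1 lie to its right and all points of Atg14 and Atg9a to its left.

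In the ULK1 complex, which receives the nutrient signal, Atg13 had the largest difference. ATG13 is the adaptor that holds the kinase and its scaffold together and that mTORC1 phosphorylates. Its log2 level was 6.82, 6.40, 6.60 and 6.79 on the LFD arrays of experiments 1 to 4 and 6.87, 6.85, 7.10 and 7.43 on the HFD arrays. Every HFD array was thus above every LFD array, though in experiment 1 by only 0.05, beside 0.45, 0.49 and 0.63 in the others. The mean difference was 0.41 ± 0.16 (SE), a 1.33-fold higher level, with an unadjusted p of 0.0335 in limma (adjusted p = 0.982) and of 0.0149 with the block (adjusted p = 0.278). Without experiment 1 and with the block it was 0.53 ± 0.10 (unadjusted p = 0.00435). The threshold was lost when either LFD 2, LFD 3, HFD 3 or HFD 4 was left out (unadjusted p from 0.0693 to 0.0868), and after centring the arrays (0.36, unadjusted p = 0.0762) or normalising them again (0.34, unadjusted p = 0.0595). With the block it was lost without experiment 2 (unadjusted p = 0.0556) or experiment 4 (unadjusted p = 0.0596).

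The other members of that complex had smaller values. Ulk1, the kinase itself, was at 0.13 ± 0.10, and its LFD levels of 7.38, 7.12, 7.09 and 6.93 overlapped the HFD levels of 7.26, 7.29, 7.30 and 7.21. Ulk2, its close relative, was at -0.12 ± 0.18, and Rb1cc1 (FIP200, the large scaffold) at -0.08 ± 0.12. A second, dimmer probe set of Rb1cc1 gave -0.27 and was below 0 in all experiments.

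In the class III PI3-kinase complex, the differences lay between -0.19 and 0.11. Atg14 directs this complex to the site where autophagosomes form. Its level was 6.16, 6.20, 6.48 and 6.25 in LFD arrays and 5.85, 6.15, 6.18 and 6.16 in HFD arrays. The HFD array was the lower one in each experiment, by 0.32, 0.05, 0.31 and 0.09, but the highest HFD values overlapped the lowest LFD values. The mean difference of -0.19 ± 0.11 had an unadjusted p of 0.125 in limma (adjusted p = 0.987) and of 0.0776 with the block (adjusted p = 0.485), and with the endothelial mean as a covariate it was -0.21 ± 0.07 (unadjusted p = 0.0233). Without experiment 1 the blocked value was -0.15 ± 0.10 (unadjusted p = 0.22). Pik3c3, the lipid kinase VPS34, was nearly flat, its 95% interval running from -0.17 to 0.17. Pik3r4, the pseudokinase VPS15, was at 0.11 ± 0.11, Uvrag, which replaces ATG14 in a second form of the complex, at -0.07 ± 0.14, and Ambra1, a regulator of Beclin 1, at -0.05 ± 0.09.

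Among the proteins that feed and mark the membrane, Wipi1, a reader of the phospholipid made by VPS34, gave the only difference past the unadjusted threshold, and only with the block. Its LFD levels were 6.76, 5.91, 5.72 and 5.91 and its HFD levels 7.01, 6.30, 6.23 and 5.95. Both arrays of experiment 1 were above all others, and the HFD array was higher in each experiment, by 0.25, 0.39, 0.51 and 0.05. The difference of 0.30 ± 0.29 had an unadjusted p of 0.336 in limma (adjusted p = 0.999), and of 0.0294 with the block (SE 0.10, adjusted p = 0.350). Without experiment 1 the blocked value was 0.31 ± 0.13 (unadjusted p = 0.0675), and the threshold was also lost without experiment 2 or 3 (unadjusted p = 0.0987 and 0.0939). It was lost too with the block after centring (0.25 ± 0.11, unadjusted p = 0.0538) and with experiment as a random term (unadjusted p = 0.162). Leaving out 1 array of experiment 1, without the block, gave 0.53 (LFD) or 0.09 (HFD). Wipi2, whose product recruits ATG16L1, was at -0.06 ± 0.09.

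Atg9a encodes the membrane protein whose vesicles seed the autophagosome. Its levels of 6.59, 6.34, 6.36 and 6.29 in LFD arrays stood beside 6.50, 6.27, 6.34 and 6.23 in HFD arrays. The 4 differences were below 0 but at most 0.10 in size, with a mean of -0.06 ± 0.10 (unadjusted p = 0.529 in limma, 0.413 with the block). Without experiment 1 it was -0.05 ± 0.09. Of the lipid transfer genes, Atg2a was at 0.03 ± 0.20 and Atg2b at -0.06 ± 0.12.

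The conjugation enzymes held the member with the largest difference. Atg7 encodes the E1-like enzyme that activates both ATG12 and the ATG8 proteins. Its level was 6.59, 7.33, 7.58 and 7.34 on the LFD arrays and 7.09, 7.69, 7.85 and 7.94 on the HFD arrays. Both arrays of experiment 1 were below all others, so the diets overlapped, yet within each experiment the HFD array was higher, by 0.51, 0.36, 0.26 and 0.60. The difference was 0.43 ± 0.26 (1.35-fold, unadjusted p = 0.137, adjusted p = 0.988) in limma, and 0.43 ± 0.09 with the block (95% interval 0.21 to 0.66, unadjusted p = 0.00374, adjusted p = 0.177). With the block it stayed past the unadjusted threshold when each experiment was left out in turn (0.38 to 0.49, unadjusted p from 0.00481 to 0.0193) and after centring (0.38 ± 0.13, unadjusted p = 0.0208). Leaving out 1 array of experiment 1, without the block, gave 0.22 (LFD) or 0.62 (HFD).

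Atg4c is 1 of the proteases that trim ATG8 proteins before and after their attachment. Its LFD levels were 5.40, 6.49, 6.88 and 6.22, and its HFD levels 5.67, 6.79, 6.94 and 6.78. Experiment 1 was again lowest on both arrays, and the HFD array was higher by 0.28, 0.30, 0.07 and 0.55. The difference of 0.30 ± 0.38 in limma (unadjusted p = 0.458, adjusted p = 0.999) had an SE of 0.10 with the block (unadjusted p = 0.0288, adjusted p = 0.346), and without experiment 1 it was 0.31 ± 0.13 (unadjusted p = 0.0739). The threshold was also lost without experiment 2 or 4 (unadjusted p = 0.0785 and 0.0923), with experiment as a random term (unadjusted p = 0.266) and with the block after centring (0.25, unadjusted p = 0.12). Leaving out 1 array of experiment 1, without the block, gave 0.02 (LFD) or 0.59 (HFD).

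Atg4a, a protease of the same family, was at 7.16, 6.38, 6.76 and 6.48 in LFD and at 7.18, 6.85, 6.83 and 6.79 in HFD arrays. The HFD array was higher each time, by only 0.02 in experiment 1 and by 0.47, 0.07 and 0.31 in the others. The mean was 0.22 ± 0.18 (unadjusted p = 0.272 in limma, 0.0886 with the block), and a second probe set gave 0.17. Leaving out the LFD array of experiment 1 took it to 0.37 ± 0.14 (unadjusted p = 0.032), and leaving out both arrays of experiment 1, with the block, to 0.28 ± 0.12 (unadjusted p = 0.0705). Atg4b, the main protease of the family, went the other way in value, with -0.17 ± 0.11 and 5 of its 8 arrays at exactly 5.97.

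Atg5, part of the complex that completes ATG8 attachment, had no common direction. Its level was 5.67, 6.17, 6.71 and 6.05 in LFD and 5.85, 6.52, 6.41 and 6.46 in HFD arrays. It was higher in HFD by 0.18, 0.36 and 0.41 in experiments 1, 2 and 4 and lower by 0.30 in experiment 3, for a mean of 0.16 ± 0.24 (unadjusted p = 0.518 in limma, 0.286 with the block). It was 0.00 without the LFD array of experiment 1, 0.35 without that of experiment 3 and 0.32 without the HFD array of experiment 1. With the block it was 0.16 ± 0.18 without experiment 1 and 0.32 ± 0.10 (unadjusted p = 0.025) without experiment 3. In experiment 3 the LFD array was also the higher one for Atg10 (-0.40), Atg16l2 (-0.46) and Atg16l1 (-0.27), and the median over the 10 conjugation genes was -0.25 there, beside 0.12, 0.23 and 0.25 in experiments 1, 2 and 4. The LFD array of experiment 3 was the one with the lowest endothelial and fibroblast markers. With the endothelial mean as a covariate, Atg5 was at 0.12 ± 0.07 (unadjusted p = 0.155 in limma), and the part of cell mixture in these values was not tested further. The means over experiments were 0.10 for Atg10, the E2-like enzyme for ATG12, 0.11 for Atg12, -0.04 for Atg3, the E2-like enzyme for ATG8 proteins, -0.05 for Atg16l1 and -0.04 for Atg16l2.

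**Figure D3:**
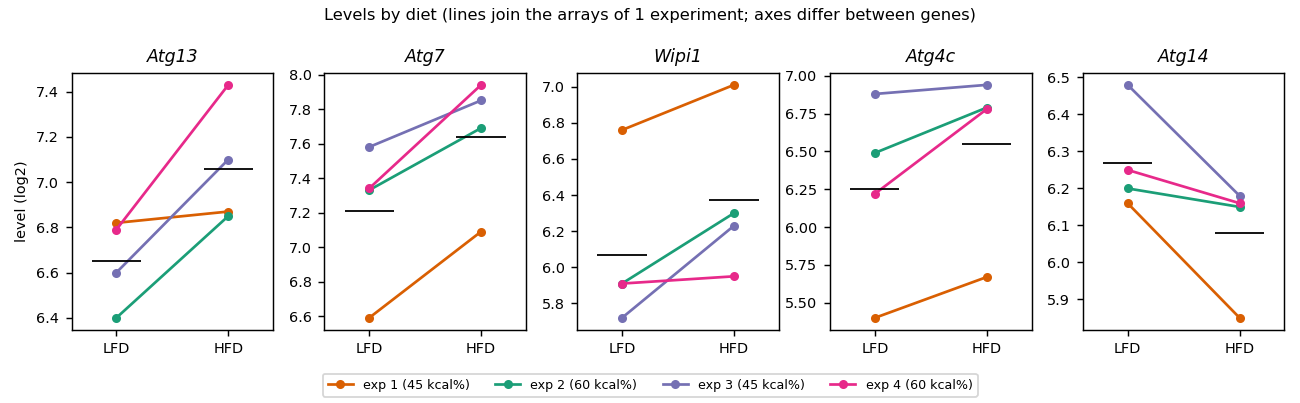
Log2 level (vertical axes, which differ between genes) of Atg13, Atg7, Wipi1, Atg4c and Atg14 on the LFD and HFD arrays, with a line joining the arrays of 1 experiment and black bars at the means of 4. Lines slope up in all experiments for the first 4 genes and down for Atg14, and experiment 1 (orange) lies apart from the others for Atg7, Wipi1 and Atg4c.

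The promoters of the members were searched for 4 motifs that transcription factors of autophagy genes are known to read, as a feature that the choice of genes did not use. RefSeq (GRCm38.p6) gave 300 bases around the start, 250 before and 50 after, for 31 of the 37 members. CACGTG, the core letters read by TFEB and its relatives, lay in 4 of 35 member promoters (11.4%), those of Atg14, Atg3, Atg5 and Atg7, against 7.15% of all 32851 promoters. The longer TCACGTGA, which contains CACGTG, lay in that of Atg3 alone (2.86% against 0.974%). TGACNNNGC, the core read by NRF2, lay in those of Atg13, Map1lc3b, Tax1bp1 and Ulk2 (11.4% against 12.4%), and TGTTTAC, read by FOXO factors, in 0 of 35 (3.65% of all). Both strands were searched. The sites of Atg7 and Atg13, with the largest differences, and those of Atg3 and Atg5, which carry the same letters without a common direction, are shown 5′ to 3′ on the strand of the gene, with the motif in capitals. For Atg13 the match is on the opposite strand and the capitals hold its reverse complement.
Atg7, chr6:114670942-114670991 (plus strand): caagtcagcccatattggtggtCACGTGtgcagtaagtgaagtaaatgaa
Atg3, chr16:45158735-45158786 (plus strand): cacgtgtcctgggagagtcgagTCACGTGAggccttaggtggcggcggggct
Atg5, chr10:44268303-44268338 (plus strand): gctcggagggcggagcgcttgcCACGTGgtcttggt
Atg13, chr2:91710804-91710842 (minus strand): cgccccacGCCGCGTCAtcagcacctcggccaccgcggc
The motif began 132 bases before the start in Atg7, 72 in Atg3, 14 in Atg5 and 242 in Atg13, and the Atg3 stretch opens with a second CACGTG. A match to these letters is a description and not a measured site. Among the 4 genes with CACGTG, the diet differences were 0.43 (Atg7), 0.16 (Atg5), -0.04 (Atg3) and -0.19 (Atg14), so the shared letters went with no common direction.

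The ATG8 family, the small proteins attached to the membrane, had no member past the unadjusted threshold with either fit. Map1lc3b (LC3B), the usual marker of autophagosomes, was at 9.34, 8.93, 9.05 and 9.06 in LFD and at 9.10, 9.05, 9.05 and 8.95 in HFD arrays. The groups overlapped, and the difference of -0.05 ± 0.10 (95% interval -0.28 to 0.17, unadjusted p = 0.595 in limma, 0.570 with the block) was nearly the same in its second probe set (-0.06). It was 0.01 without experiment 1 and with the block. Map1lc3a (LC3A) was at -0.13 ± 0.21, Gabarap at 0.08 ± 0.17 and Gabarapl2 (GATE-16) at 0.05 ± 0.14.

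Gabarapl1, the remaining ATG8 gene, differed in direction between the experiments with 45 and those with 60 kcal% fat in the HFD. Its level was 8.96 (LFD) and 8.66 (HFD) in experiment 1 and 8.69 and 8.63 in experiment 3, both with 45 kcal% fat. With 60 kcal% it was 8.28 and 8.84 in experiment 2 and 8.16 and 8.80 in experiment 4. HFD was thus lower by 0.30 and 0.06 at 45 kcal% and higher by 0.56 and 0.64 at 60 kcal%, and the diet effects differed by 0.78 ± 0.18 (interaction in limma, unadjusted p = 0.00913, adjusted p = 0.951, unadjusted p = 0.00683 after centring). The LFD arrays differed more between the pairs of experiments than the HFD arrays did. Over all experiments its difference was 0.21 ± 0.18, and with the block and without experiment 1 it was 0.38 ± 0.18 (unadjusted p = 0.0906 in limma).

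Of the cargo receptors, Sqstm1 (p62), which links ubiquitin-tagged cargo to ATG8 proteins and also binds KEAP1, the inhibitor of NRF2, showed the widest spread of differences of any member. It was at 9.75, 9.39, 10.09 and 9.57 in LFD and at 9.85, 10.49, 9.83 and 10.02 in HFD arrays. HFD was higher by 0.11, 1.11 and 0.45 in experiments 1, 2 and 4 and lower by 0.26 in experiment 3. The mean difference was 0.35 ± 0.20 (1.27-fold, unadjusted p = 0.118 in limma, 0.176 with the block, 0.43 ± 0.28 with the block without experiment 1), and the effect at 60 kcal% fat exceeded that at 45 kcal% by 0.85 ± 0.30 (unadjusted p = 0.039, adjusted p = 0.951, unadjusted p = 0.0177 after centring). Such an interaction reached an unadjusted p under 0.05 in 2 of 34 members and in 743 of all genes (3.95%). Fat content was fixed by experiment, and the matched LFD and the weeks on diet differed too, so these cannot be told apart. The endothelial markers also differed between these experiments, with a mean HFD minus LFD of -0.36 and 1.99 at 45 kcal% and -0.85 and -1.68 at 60 kcal%. Their part in these interactions was not tested.

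**Figure D4:**
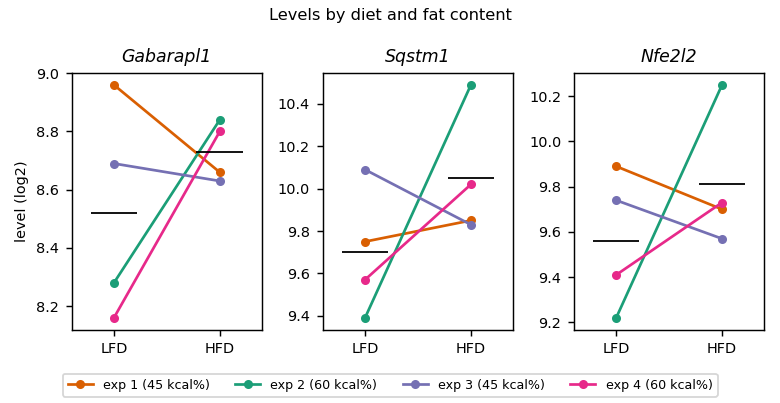
Log2 level (vertical axes, which differ between genes) of Gabarapl1, Sqstm1 and Nfe2l2 on the LFD and HFD arrays, with a line for each experiment and black bars at the means of 4. The lines of the 60 kcal% experiments (2 and 4) slope up in all 3 genes, and those of the 45 kcal% experiments (1 and 3) slope down, except that of Sqstm1 in experiment 1, which goes up by 0.11.

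Nfe2l2 (NRF2), a transcription factor that acts on Sqstm1, was not a member but gave a similar split between the 45 and 60 kcal% experiments. It was at 9.89, 9.22, 9.74 and 9.41 in LFD and at 9.70, 10.25, 9.57 and 9.73 in HFD arrays, so that HFD was lower by 0.19 and 0.17 at 45 kcal% and higher by 1.03 and 0.33 at 60 kcal% (difference 0.86, unadjusted p = 0.0325 in limma, adjusted p = 0.951). It was named after its values were seen, and of the 64 other pathway genes described below only it and Mlst8, an mTOR subunit (0.60, unadjusted p = 0.0169, adjusted p = 0.951), had an unadjusted interaction p under 0.05, beside 3.95% of all genes. The HFD array of experiment 2 was the highest of 8 for both Nfe2l2 and Sqstm1.

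Nbr1, a receptor related to p62, had a small difference in a single direction. Its level was 7.92, 7.85, 7.80 and 7.65 in LFD and 7.97, 7.94, 7.83 and 7.85 in HFD arrays. HFD was higher each time, by 0.03 to 0.20, but the groups overlapped (mean 0.09 ± 0.08, unadjusted p = 0.307 in limma, 0.291 with the block, 0.11 ± 0.09 with the block without experiment 1). Calcoco1, a receptor for the endoplasmic reticulum, was at -0.52, 0.58, 0.44 and 0.02 in experiments 1 to 4 (mean 0.13 ± 0.23), and without the LFD array of experiment 1 its difference was 0.37 ± 0.11 (unadjusted p = 0.0128). Tax1bp1, a ubiquitin-binding receptor, was at 0.03 ± 0.11. Stx17, the SNARE protein that lets autophagosomes fuse with lysosomes, differed by 0.07 or less in every experiment, with a 95% interval from -0.26 to 0.26.

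Experiments set the members apart more than diet did. Of the sum of squares over the 8 arrays, pooled over the members, experiment (3 degrees of freedom) took 67.2% and diet (1 degree of freedom) 12.7%. The members that varied most weigh most in these pooled shares. Taken singly, experiment had the larger share in 32 members and diet in 2, Atg13 (50%) and Sqstm1 (30.6%). No share of all genes is given for this count, and experiment has more degrees of freedom, so the count is not shown to be particular to the members. In 9 members both arrays of experiment 1 lay below all others (Ulk2, Atg3, Atg4c, Atg5, Atg7, Atg10, Atg16l1, Atg16l2 and Gabarap), and in 8 they lay above (Atg2b, Atg9a, Wipi1, Atg4a, Map1lc3a, Map1lc3b, Gabarapl2 and Tax1bp1), which held for 14.9% and 16.4% of all genes. In experiment 1 Atg4c was on average 1.15 lower than in the others, Atg7 0.78 lower and Atg5 0.63 lower, whereas Wipi1 was 0.88 higher and Map1lc3a 0.56 higher. Of the 9 genes on the low side, 7 encode conjugation enzymes or their partners, on the arrays with the lowest macrophage and highest endothelial markers. Whether these levels follow the cell mixture was not tested.

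**Figure D5:**
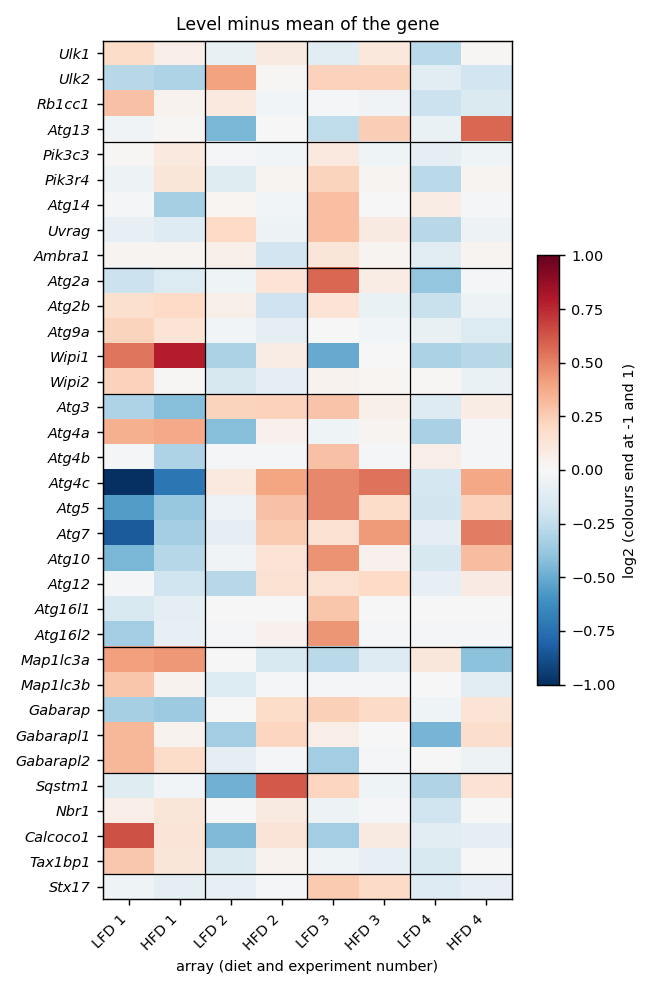
Log2 level of each of the 34 autophagy genes (rows, grouped by role) on each of the 8 arrays (columns, by experiment and diet) minus the mean of that gene, from blue (lower) to red (higher), with colours ending at -1 and 1. The arrays of experiment 1 stand out in blue among the conjugation genes, from Atg4c to Atg10, and in red for Wipi1 and Map1lc3a, whereas Atg13 is red in the HFD arrays of experiments 3 and 4.

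By experiment, the median difference over the members was -0.02, 0.10, -0.04 and 0.15, and 16, 23, 12 and 25 members were higher in HFD in experiments 1 to 4. The 2 experiments with 60 kcal% fat thus had the higher medians, beside all-gene medians of 0.00, 0.02, -0.01 and 0.02. The SD was larger among LFD than HFD arrays for 25 members (73.5%), as it was for 65.5% of all genes, with a median SD of 0.224 in LFD and 0.125 in HFD arrays. In 6 members at least 3 arrays held exactly the same value, as did 23.9% of all genes.

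Beyond the members, 64 further genes of the pathway were taken from lists chosen with earlier results of these data known. The shares given for these lists beside all genes are thus descriptions and not independent comparisons. At an unadjusted p under 0.05 in limma without the block, 5 were higher (7.81%, against 3.30% of all genes) and 1 lower (1.51% of all genes). With the block 10 (15.6%) were higher and 1 lower, beside 7.95% and 4.16% of all genes. The median difference of the 64 genes was 0.07. Of 23 other core genes 3 were higher with the block (13.0%, against 7.95% of all genes) and 1, Ykt6, without it (4.35%, against 3.30%). Ykt6, a SNARE protein of autophagosome fusion, was higher by 0.47, 0.48, 0.34 and 0.34 in experiments 1 to 4 (0.41 ± 0.08 with the block, unadjusted p = 0.00241, adjusted p = 0.154, unadjusted p = 0.0488 without the block). Plekhm1, an adaptor that joins ATG8 proteins to lysosomes, was higher by 0.54, 0.52, 0.10 and 0.69 (0.46 ± 0.12, unadjusted p = 0.00871), and Tecpr1, another tethering protein, was at 0.28 ± 0.10 (unadjusted p = 0.0314). Neither passed without the block (unadjusted p = 0.242 and 0.321) or with experiment as a random term (0.0926 and 0.15). Without experiment 1 the blocked values were 0.39, 0.44 and 0.36 for Ykt6, Plekhm1 and Tecpr1.

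Among 18 receptors of selective autophagy outside the members, the same 4 (22.2%) were higher with and without the block and 0 lower. Of all genes, 7.95% were higher with the block and 3.30% without it. Tex264, a receptor for the endoplasmic reticulum, was higher by 0.14, 0.57, 0.43 and 0.74 (0.47 ± 0.12, unadjusted p = 0.00843, adjusted p = 0.223). The mitochondrial receptors Fkbp8 (0.32 ± 0.10, unadjusted p = 0.0238) and Phb2 (0.28 ± 0.09, unadjusted p = 0.0234) were also higher in all 4 experiments, whereas Bnip3l (0.45 ± 0.14, unadjusted p = 0.0211) was higher in 3. Without the block their unadjusted p ran from 0.0332 to 0.0448. Without experiment 1 the blocked values were 0.58 (Tex264), 0.42 (Fkbp8), 0.60 (Bnip3l) and 0.29 (Phb2), the last with an unadjusted p of 0.0611.

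Among 15 genes of the upstream kinases, Rptor, the mTORC1 subunit that binds its substrates, was higher by 0.30, 0.33, 0.40 and 0.22 (0.31 ± 0.08 with the block, unadjusted p = 0.00782, adjusted p = 0.222). Deptor, an inhibitor of mTOR, was lower by 0.44, 0.23, 0.34 and 0.17 (-0.30 ± 0.08, unadjusted p = 0.014, adjusted p = 0.272). These were the only 2 of the 15 past the unadjusted threshold with the block, 1 higher (6.67%, against 7.95% of all genes) and 1 lower (4.16% of all genes). Without the block Deptor passed (unadjusted p = 0.0351 in limma) and Rptor did not (0.0719). Without experiment 1 the blocked values were 0.32 for Rptor and -0.25 for Deptor, the latter with an unadjusted p of 0.0541.

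Of 8 transcription factors known to act on autophagy genes, 2 were higher with the block (25%, against 7.95% of all genes) and 0 without it. Mitf was at 5.81, 8.07, 8.57 and 8.12 in LFD and at 7.39, 8.68, 8.85 and 9.08 in HFD arrays, lowest in experiment 1 on both diets. HFD was higher by 1.58, 0.61, 0.28 and 0.95 (0.86 ± 0.22, unadjusted p = 0.00857, adjusted p = 0.224). Its relative Tfeb was higher by 0.16, 0.26, 0.59 and 0.35 (0.34 ± 0.10, unadjusted p = 0.0147, adjusted p = 0.278). Neither passed without the block (unadjusted p = 0.222 for Mitf and 0.163 for Tfeb) or with experiment as a random term (0.0828 and 0.0531). Without experiment 1 the blocked values were 0.62 ± 0.16 for Mitf and 0.40 ± 0.11 for Tfeb.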

How the data were processed

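ATMs from 4 HFD and 4 LFD pools were measured on Affymetrix whole-transcript arrays. The deposited values are log2 levels per feature, summarised by the authors with RMA according to the processing notes (version not given in the sources used here). Array medians ran from 4.253 to 4.39. Of 35556 features, 21218 had 1 symbol, 1881 several and 12457 were not in the annotation table, and 18790 of the 18820 genes matched RefSeq by Entrez ID. Values were used as deposited, with the brightest probe set per gene.

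HFD and LFD arrays were compared with limma 3.58.1 (lmFit and eBayes, R 4.3.3), fitted over all genes with Benjamini-Hochberg adjustment, two-sided, at 0.05. The labels give the experiment of each array, so experiments pair the arrays, and the deviations of paired arrays from their diet means correlated at 0.889, 0.357, 0.652 and 0.186. Both the fit without a block and that with experiment as a block are therefore given for the members and other genes described in full, and the fit without it alone for the remaining members, whose calls it did not change. The interaction of diet and fat content had experiment as a term. The fits without and with the block were tested on simulated data that held no effect of experiment, so that test does not bear on the choice between them. Precision is limited by the number of arrays.

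The members and gene lists were chosen with earlier results of these data known. Full values are given for members with a common direction in all experiments or an unadjusted p under 0.05 in either fit, and for Map1lc3b and Atg5. Becn1, planned as the third, had no probe set of its own. A planned comparison of ATG8 protein sequences was not made. Alternatives were the block (fixed or random), each array or experiment left out, other probe sets, filters, scalings, variance priors and tests, and the mean of the endothelial markers as a covariate.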

Additional observations from a re-analysis of the deposited data

Results flagged for a closer look

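In 11 of 102 groups of 4 values examined (10.8%; chance flags about 1 in 20), the highest or lowest value stood far from the other 3, and all 11 were levels in the HFD arrays. In 10 of them the distant array was that of experiment 1. It was low for Atg14 (5.85, the others 6.15 to 6.18), Atg4c (5.67, the others 6.78 to 6.94), Atg5 (5.85, the others 6.41 to 6.52) and Gabarap (10.59, the others 11.09 to 11.15). It was high for Pik3c3 (7.04, the others 6.90 to 6.91), Atg4a (7.18, the others 6.79 to 6.85) and Gabarapl2 (7.78, the others 7.55 to 7.58). For Pik3r4 (6.87), Atg4b (5.67) and Atg16l1 (6.42) in experiment 1, and for Ambra1 (6.82) in experiment 2, the other 3 arrays held exactly equal values, so that any departure would stand apart.

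The diet effect differed between the experiments with 60 and 45 kcal% fat in Gabarapl1, by 0.78, and in Sqstm1, by 0.85. Both were below an unadjusted p of 0.05 in the interaction test in limma (0.00913 and 0.039) and had an adjusted p of 0.951. For Gabarapl1 the HFD array was higher in 2 of 2 experiments with 60 kcal% fat and lower in 2 of 2 with 45 kcal%.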

How the results depend on the processing

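The number of members higher in HFD at an unadjusted p under 0.05 was 1 without the replicate block, 4 with it as a fixed term and 2 as a random term, and 0 after centring or renewed quantile normalisation. Leaving out each array in turn gave 0 to 5 (0 without LFD 2, HFD 3 or HFD 4, 2 without LFD 3 or HFD 1, and 5 without LFD 1, where 3.58% of all genes were higher). With the block it was 2, 1, 5 and 2 without experiments 1 to 4 (7.15%, 4.83%, 8.32% and 5.69% of all genes). In settings added after seeing the data, the block with other choices gave 4 without dim probe sets, 4 with probe sets averaged and 2 with centring. The endothelial covariate gave 2 higher (Atg13 and Atg7) and 2 lower (Atg14 and Atg4b), beside 6.01% and 3.17% of all genes, and every other setting 0 lower. With this covariate Wipi1 (0.35, unadjusted p = 0.0623 in limma) and Atg4c (0.23, unadjusted p = 0.19), which passed with the block, did not pass. Members higher in all experiments numbered 6, and 2 after centring, which lowered the median of all genes by 0.05. Over experiments 2 to 4 alone the count was 9, but fewer equal signs were then required. No share of all genes is given for the counts after centring or over experiments 2 to 4, so neither can be set against the 6. With 1 array left out in turn, Atg9a (-0.06 over all arrays) ranged from -0.12 (without HFD 1) to 0.00 (without LFD 1), and Map1lc3b (-0.05) from -0.11 (without LFD 2) to 0.03 (without LFD 1). Map1lc3b was 0.01 with the block without experiment 1 and 0.01 at 60 kcal% fat alone, and Atg5 was -0.06 at 45 kcal% alone. The causes were not tested. Atg13, Atg14, Wipi1, Atg4a, Atg4c, Atg7 and Nbr1 kept their direction in every setting. At 45 kcal% alone, Gabarapl1 was -0.18, Sqstm1 -0.08 and Calcoco1 -0.04, against means above 0. Over all genes, 621 higher and 284 lower calls became 1497 and 783 with the block and 312 and 402 after centring. No gene passed adjustment in a planned setting, and in the added block settings 25 genes did without dim probe sets, 70 with centring and 3 with probe sets averaged, none of them a member. Of the other 64 pathway genes, 5 were higher, 0 after centring and 0 to 7 without 1 array in turn.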
